A study of Mus musculus with 30 samples.

Results

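The genes described here encode 3 superfamilies of conjugating enzymes. They were chosen by symbol, as every row starting with Ugt1, Ugt2, Gsta, Gstm, Gstp, Gstt, Gsto, Mgst, Sult1, Sult2, Sult4 or Sult5, and they number 56 of the 24062 gene symbols in each table. The Ugt genes number 18, the soluble Gst genes 19, the membrane-bound Mgst genes 3 and the Sult genes 16. RNA was sequenced from terminal ileum and from the post-caval lobe of the lung of C57bl/6 mice overexpressing TL1A, the TNF-related cytokine that Tnfsf15 encodes, and from mice labelled WT. Mem mice carried the membrane-restricted form, named TL1A Delta 69-93 in the labels, while in Mem+Sol mice membrane-bound and soluble TL1A were both in excess. The genotype label of the WT group itself also names the CD2 promoter, which is active in T cells, as the driver of TL1A, and does not say how that wording applies to WT mice. All libraries shared the C57bl/6 background and held males and females, and age is not given in the sources used here. The ileum had 5 WT, 5 Mem and 6 Mem+Sol libraries, all from sequencing batch 3, and the lung had 5 WT, 5 Mem and 4 Mem+Sol libraries from batches 1 and 2. Females gave 1 of 5 WT, 2 of 5 Mem and 3 of 6 Mem+Sol ileum libraries.

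Conjugating enzymes attach a water-soluble group to drugs, dietary compounds, hormones, bilirubin and lipid oxidation products, which can then leave the cell through efflux pumps. UDP-glucuronosyltransferases (Ugt) transfer glucuronic acid, glutathione S-transferases (Gst and Mgst) transfer glutathione, and cytosolic sulfotransferases (Sult) transfer sulfate from the donor PAPS. Enterocytes of the small intestine and club cells of the airway are known for high levels of these enzymes.

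Library totals ran from 4295039 to 13226790 counts in WT ileum, from 10632559 to 32653753 in Mem ileum and from 12482151 to 36133187 in Mem+Sol ileum, so depth moved with genotype in that tissue. Lung totals ran from 22259203 to 39089383 counts. Values below are CPM (counts-per-million of the library total), after trimmed mean of M-values scaling. Tnfsf15 was at 4.49 to 9.92 CPM in WT lung, at 20.2 to 24.5 CPM in Mem lung and at 61.5 to 97.9 CPM in Mem+Sol lung, with no overlap. In the ileum it was at 1.83 to 7.25 CPM in WT, at 3.64 to 5.42 CPM in Mem and at 4.55 to 10.2 CPM in Mem+Sol, and the genotypes overlapped. The defining markers Alpi, Vil1 and Fabp2 of enterocytes had counts in the ileum and the club cell markers Scgb1a1 and Scgb3a2 in the lung. The labels do not say that libraries came from separate mice, so each p-value speaks only of the spread among these libraries. Each group held libraries of both sexes, so no group came from a single mouse. Between same-group libraries, chi-square per degree of freedom (spread relative to counting error) was lowest at 12.6 for ileum libraries and 12.4 for lung libraries. Counting error alone would give smaller values. Whether each library came from its own mouse, and any other technical part of the spread, was not tested.

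Of the 56 genes, 32 had enough counts to be tested in the ileum. A further 18 had counts but stayed under the filter, with a highest mean of 0.607 CPM, and 6 (Sult2a1, Sult2a2, Sult2a4, Sult2a6, Ugt1a10 and Ugt2a2) had 0 counts in all ileum libraries. In the lung 28 were tested, 21 were counted but not tested with a highest mean of 0.177 CPM, and 7 (Sult2a4, Sult2a5, Sult2a6, Ugt2a1, Ugt2a2, Ugt2b38 and Ugt2b5) had 0 counts. A count of 0 allows up to 3 counts in all, which is 0.0107 CPM over the summed ileum libraries and 0.00711 CPM over the summed lung libraries, for counting error only.

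Several of these genes are so alike, or overlap so far, that reads may be shared between them, and how the authors' counting treated such reads is not given in the sources used here. The pairs below are printed because the values of their members hang on this. Gstp1 and Gstp2 lie side by side on chromosome 19 (GRCm38, chr19:4035407-4037985 and chr19:4040285-4046023, minus strand), and 12 of their 630 coding bases differ. The first 60 coding bases in the GENCODE transcripts, with the differing bases in capitals, are:
Gstp1: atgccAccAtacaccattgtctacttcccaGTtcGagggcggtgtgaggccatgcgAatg
Gstp2: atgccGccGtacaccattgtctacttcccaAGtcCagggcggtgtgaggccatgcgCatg
Ugt2b5 (chr5:87124960-87140318, minus strand) was among the genes with the largest difference in the ileum, and its copy Ugt2b38 (chr5:87409942-87424203, minus strand) differs from it at 47 of 1590 coding bases. Coding bases 1467 to 1526 of each, with the 9 differing bases in capitals, are:
Ugt2b5: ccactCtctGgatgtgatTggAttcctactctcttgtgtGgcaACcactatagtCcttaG
Ugt2b38: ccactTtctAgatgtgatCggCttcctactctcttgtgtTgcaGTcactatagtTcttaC

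The share of 50-base words of a transcript that also occur in another gene was 62.3% for Gstp1, 72.6% for Gstp2, 41.7% for Ugt2b5, 89.7% for Gsta1, 64.2% for Gsta2, 28.8% for Gstm3 and 23.1% for Gstm1. It was 0.0% for Gsta4, Gstm4, Gstm5, Mgst1, Mgst2, Mgst3, Sult1b1, Sult1d1 and Sult4a1. The 8 Ugt1 rows stand for alternative first exons of a locus on chromosome 1 that splice to common exons, so 50.3 to 82.7% of the exon bases of each are shared with another gene. The value of every single Ugt1 row below, in each comparison, is therefore uncertain.

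Promoters were taken from RefSeq (GRCm38.p6, 250 bases before to 50 after the start), where 49 of the 56 genes matched; Gstt2, Sult4a1, Gsta4, Sult2a2, Sult2a7, Ugt1a6b and Sult2a1 did not. Motifs were searched on both strands. TGACNNNGC, the core of the antioxidant response element that NRF2 factors bind, was present in 4 of their 59 windows and in 12.4% of all 32851 windows. CAAAGTCCA, an HNF4 type site, was present in 1 of the 59, that of Sult1b1 at position 25 after the start, and in 0.475% of all windows. The 150 bases before the start of Gsta3 (chr1:21240435-21240584, plus strand) are printed because this gene was called in the lung and holds the antioxidant core, which is in capitals:
Gsta3: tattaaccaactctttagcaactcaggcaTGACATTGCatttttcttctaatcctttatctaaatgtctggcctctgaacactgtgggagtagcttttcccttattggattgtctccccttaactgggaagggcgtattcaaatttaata
The other matches to the antioxidant core were before the RefSeq starts of Gstm5, Gstm7 and Mgst1, and those of Gstm7 and Mgst1 lie inside the longer gene models of GENCODE. A match is a stretch of letters and not a measured binding site.

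The WT tissues differed in which conjugating enzymes they held. Divided by the length of all annotated exons of a gene, the highest levels in WT ileum were those of Mgst3 at 249 ± 61.8 CPM per kilobase (SD, n = 5), Gsto1 at 175.5 to 257.5, Mgst1 at 112 ± 15.7, Ugt2b34 at 80.8 ± 25.5 and Sult1d1 at 71.4 ± 21.9 CPM per kilobase. The ranges of neighbours in that order overlapped, apart from Gsto1, whose lowest library at 175.5 was above the highest of Mgst1 at 134.9 CPM per kilobase. In WT lung the order was Gstm1 at 138.9 ± 28.1 and Mgst1 at 137.5 ± 8.37 CPM per kilobase, which overlapped, and then Gsto1 at 58.3 ± 9.31, Gsta4 at 56.8 ± 7.16 and Gstt1 at 45.6 ± 3.6, which lay below both. These orders depend on the length used. Per kilobase of the longest coding transcript, a setting added after seeing the data, Gsto1 led in WT ileum at 342 ± 60.1, followed by Mgst3 at 249 ± 61.8, Mgst2 at 207 ± 34.6 and Mgst1 at 194 ± 27.0. In WT lung Mgst1 then led at 237 ± 14.4, followed by Gstm1 at 159 ± 32.1, Gsta3 at 121 ± 26.3 and Gsto1 at 99.7 ± 15.9.

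Between the WT tissues 34 of the 37 genes tested jointly passed the test, 22 higher and 12 lower in the ileum, while 75.6% of all genes did, 37.3% higher and 38.3% lower. Tissue and sequencing batch cannot be told apart in this comparison. In it the 5 tested Ugt2 genes, which glucuronidate steroids and many drugs, were all higher in the ileum. Ugt2b34 was at 243 to 546 CPM in WT ileum and at 0.0 to 0.102 CPM in WT lung. Ugt2b35, Ugt2b36 and Ugt2b5 had 0 counts in WT lung, which puts them at least 940-fold, 492-fold and 505-fold lower there (3 counts over the whole group, 0.02 CPM, taken as the floor).
Sult1b1, a sulfotransferase of phenols and thyroid hormone, was at 129 to 231 CPM in WT ileum and at 0.0308 to 0.0893 CPM in WT lung. Sult2b1, which sulfates cholesterol, was at 189 to 293 against 2.34 to 3.09 CPM. Ugt2b34, Ugt2b35, Sult1b1 and Sult2b1 were among the 12 genes with the smallest p of those higher in the ileum, the others being Mgst2 (log2 difference 4.67 ± 0.25, SE), Mgst3 (3.75), Gstp2 (3.47), Ugt1a1 (6.71), Sult1c2 (5.29), Gsto1 (2.11), Sult4a1 (4.34) and Sult1d1 (3.01).
The 12 genes lower in the ileum than in the lung were Ugt1a6a (-3.72 ± 0.40), Sult5a1 (-4.93 ± 0.55), Gstt1 (-1.70 ± 0.20), Gstm1 (-2.10 ± 0.28), Gsta3 (-3.81), Gsta2 (-5.30), Sult1a1 (-1.96), Gstm2 (-1.28), Gsto2 (-3.04), Gsta4 (-1.19), Ugt1a6b (-2.62) and Gstm4 (-0.70). With all Ugt1 rows summed the ileum was the higher tissue, at 36 to 78.7 CPM against 16.0 to 20.8 CPM in WT lung, opposite to the Ugt1a6a and Ugt1a6b rows; the sum was not tested. Ugt1a6a, a phenol glucuronosyltransferase, was at 8.49 to 12.9 CPM in WT lung and at 0.119 to 2.37 CPM in WT ileum. Sult5a1 was at 7.49 to 9.12 CPM in WT lung and at 0.0 to 0.562 CPM in WT ileum. Gstt1 was at 58.6 to 71.9 CPM in WT lung and at 15.1 to 25.6 CPM in WT ileum, and Gstm1 at 159 to 254 CPM against 24.0 to 63.3 CPM. Mgst1, at 246 ± 38.1 CPM in the ileum and 252 ± 16.4 CPM in the lung, and Gstm6 and Gstm7 overlapped between tissues and did not pass the test.

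**Figure D1:**
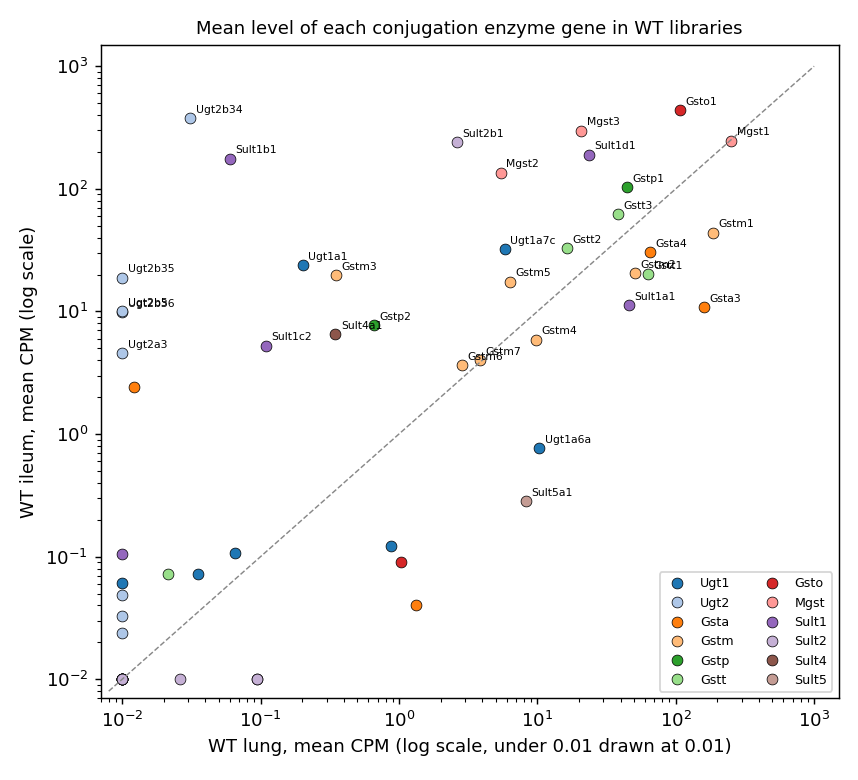
Mean CPM of each of the 56 genes in the 5 WT lung libraries (x axis, log scale) and the 5 WT ileum libraries (y axis, log scale); the dashed line marks equal levels and colours mark families. The Ugt2 genes with counts lie at the left edge, Mgst1 on the line, and Gsta3 and Sult5a1 to the right of it.

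The first genotype question is what membrane-restricted TL1A alone changed in the ileum. In Mem ileum 7 of the 32 tested genes were lower than in WT and 0 were higher, while over all 14959 tested genes 8.06% were called, 3.06% lower and the rest higher (edgeR quasi-likelihood test, Benjamini-Hochberg adjusted p under 0.05). The 7 were Gsta4 (log2 fold change -2.07 ± 0.38, SE, adjusted p 0.0051), Ugt1a1 (-2.23 ± 0.55), Ugt2b34 (-0.82 ± 0.22), Ugt2b36 (-2.34 ± 0.63), Mgst3 (-0.89 ± 0.24), Ugt2b5 (-2.5 ± 0.70) and Sult1d1 (-1.13 ± 0.34, adjusted p 0.0485). The median log2 fold change of the 32 was -0.64, beside 0.0006 for all tested genes, and 26 of the 32 were below 0. Fewer cells of a type and less RNA per cell cannot be told apart in these tissue samples.

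The second question is what both forms of TL1A together changed. In Mem+Sol ileum 15 of the 32 genes passed the test against WT, 12 lower and 3 higher, while 28.7% of all tested genes did, 12.1% lower and 16.6% higher. The 12 lower genes were Ugt2b34 (log2 fold change -1.55 ± 0.21, adjusted p 0.00021), Sult1d1 (-1.97 ± 0.33), Ugt2b36 (-3.44 ± 0.65), Ugt1a1 (-2.73 ± 0.52), Ugt2b5 (-3.53 ± 0.69), Mgst1 (-1.55 ± 0.34), Gsta4 (-1.39 ± 0.34), Sult1c2 (-1.75 ± 0.50), Gstm3 (-2.20 ± 0.63), Ugt2a3 (-3.46 ± 1.00), Sult2b1 (-0.60 ± 0.19) and Sult1b1 (-0.84 ± 0.29, adjusted p 0.0416). The 3 higher genes were Gstm4 (1.15 ± 0.24, adjusted p 0.00257), Gstm5 (0.78 ± 0.20) and Sult4a1 (1.75 ± 0.45). The median of the 32 was -0.54, beside 0.0142 for all tested genes. The Mem and the Mem+Sol comparison share the WT libraries.

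Between the transgenic ileum groups 0 of the 32 genes passed the test, 5 had an unadjusted p under 0.05, as did 11.7% of all tested genes, and DESeq2 called 1, while 0.0134% of all tested genes were called, 0.0134% higher and 0.00% lower. The largest differences of well-counted genes were those of Ugt2b34 (-0.73 ± 0.20, adjusted p 0.386), Sult1d1 (-0.84 ± 0.31, adjusted p 0.388) and Sult4a1 (1.09 ± 0.44, adjusted p 0.40).

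**Figure D2:**
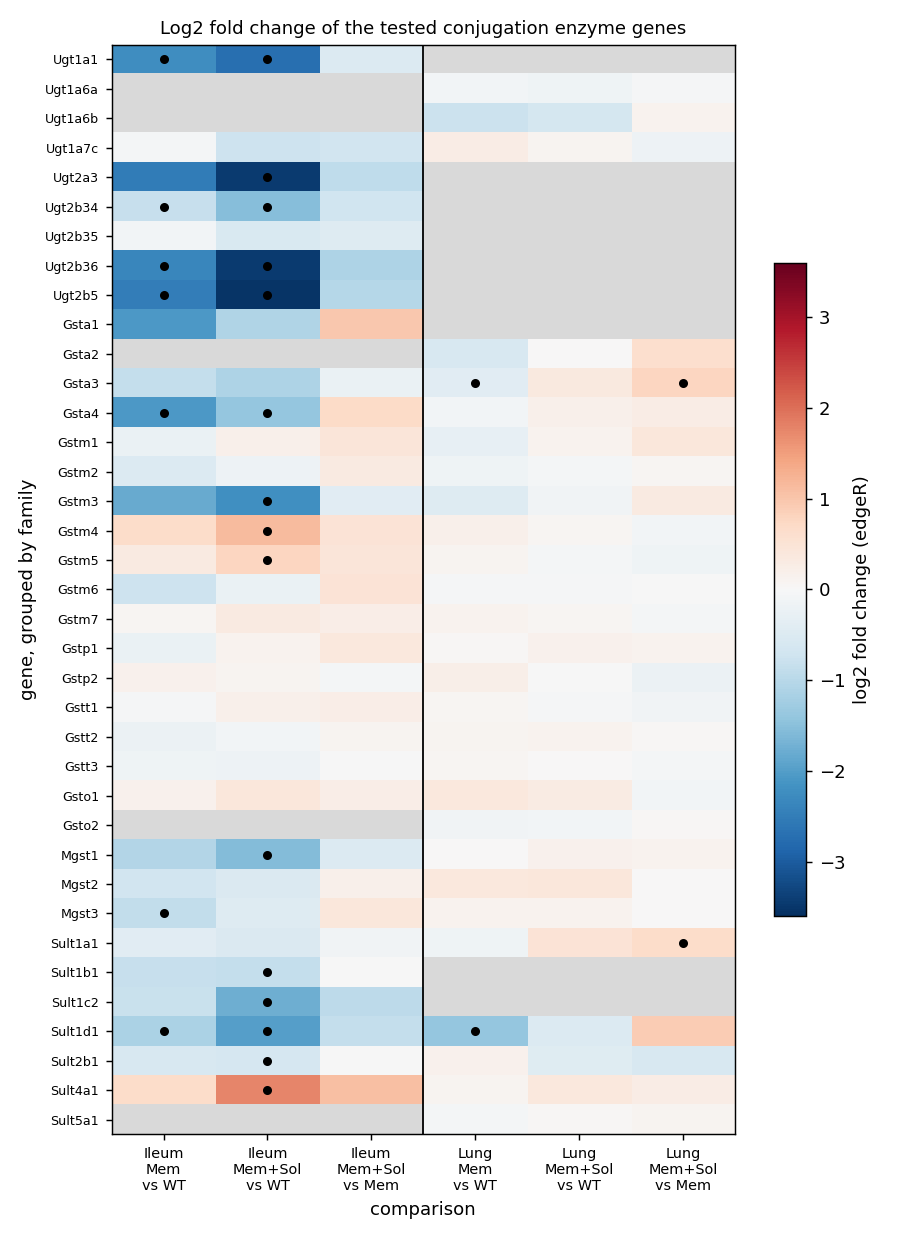
Log2 fold change (colour) of each gene tested in either tissue (rows, by family) in the 6 genotype comparisons (columns); black dots mark an adjusted p under 0.05 and grey marks genes not tested in that tissue. Dots stand on 7 and 15 genes in the first 2 ileum columns, all in blue apart from Gstm4, Gstm5 and Sult4a1, and the lung columns hold 2, 0 and 2.

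Among the Ugt2 genes, Ugt2b34 (chr5:86889767-86906937) carried most of the family's counts in the ileum. It was at 224, 381, 358, 271 and 508.5 CPM in WT libraries 1 to 5, at 243.5, 156, 182, 176 and 210.1 CPM in Mem libraries 1 to 5, and between 84.7 and 145 CPM, with a median of 116.7 CPM, in the 6 Mem+Sol libraries. All Mem+Sol libraries were below every WT and every Mem library, and Mem and WT overlapped in the range of WT 1 and Mem 1. Means were 348.5 ± 109.8, 193.5 ± 34.1 and 116 ± 19.8 CPM (SD, n = 5, 5 and 6).
Ugt2b36 was at 4.53, 14.2, 7.69, 5.66 and 13.3 CPM in WT, at 3.93, 0.950, 1.11, 0.782 and 2.04 CPM in Mem, and between 0.182 and 1.91 CPM, with a median of 0.484 CPM, in Mem+Sol. Neither transgenic group overlapped WT. Ugt2b5 was at 5.86 to 13.1 CPM in WT, at 0.711 to 3.24 CPM in Mem and at 0.106 to 2.97 CPM in Mem+Sol, again without overlap with WT. With the counts of Ugt2b38 added to those of Ugt2b5 its log2 fold changes were -2.49 in Mem and -3.51 in Mem+Sol. Without Mem+Sol 1, which had the 2.97 CPM, the Mem+Sol value of Ugt2b5 alone was -4.80. Without Mem 1 the Mem value of Ugt2b36 was -2.94.
Ugt2a3 was low, at 0.641 to 2.13 CPM in 4 WT libraries and at 16.3 CPM in WT 2, the library with the lowest total. Its call in Mem+Sol rested on that library, since without it the log2 fold change was -1.91 (adjusted p 0.0552), and without WT 1 it was -4.28. Ugt2b35 overlapped in all groups, at 17.3 ± 3.84 CPM in WT, 16.6 ± 1.64 in Mem and 12.3 ± 6.08 in Mem+Sol. The Ugt2 family sum was 388 ± 118 CPM in WT, 214 ± 35.2 in Mem and 131 ± 27.0 in Mem+Sol.

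The Ugt2 genes lie with Sult1b1, Sult1d1 and Sult1e1 on a single stretch of chromosome 5 (GRCm38, chr5:86889767-87591594). Of the 13 genes there 7 were tested in the ileum, and 4 were lower in Mem and 6 in Mem+Sol, with median log2 fold changes of -1.13 and -1.97. Of the 25 tested genes elsewhere 3 were lower in Mem, and 6 were lower and 3 higher in Mem+Sol, with medians of -0.40 and -0.25. This split was made after the values were seen and was not tested.

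Ugt1a1, the bilirubin glucuronosyltransferase (chr1:88211959-88218997), was at 18.6, 25.9, 19.2, 12.1 and 33.8 CPM in WT ileum libraries 1 to 5. It was at 7.37, 1.60, 4.45, 3.48 and 4.56 CPM in Mem and between 1.00 and 9.77 CPM, with a median of 2.02 CPM, in Mem+Sol. Both transgenic groups lay below WT without overlap.
Ugt1a7c, the other Ugt1 row tested in the ileum, was at 21.2, 35.2, 32.6, 20.1 and 38.7 CPM in WT, at 24.6, 33.5, 31.1, 27.6 and 31.4 CPM in Mem, and between 6.88 and 37.7 CPM, with a median of 18.2 CPM, in Mem+Sol. It overlapped in all groups and its log2 fold changes were -0.06 ± 0.36 in Mem and -0.74 ± 0.37 in Mem+Sol (adjusted p 0.94 and 0.14). With all Ugt1 rows summed, the log2 fold change was -0.63 ± 0.35 in Mem (adjusted p 0.288) and -1.25 ± 0.35 in Mem+Sol (adjusted p 0.0147), so in Mem the Ugt1a1 call was not kept by the locus as a whole. Without Mem+Sol 1, the highest library of its group, Ugt1a1 was at -3.58 in Mem+Sol.

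The Gsta family, of which Gsta4 removes the lipid peroxidation product 4-hydroxynonenal, summed to 40.1 ± 9.86 CPM in WT, 12.8 ± 6.6 in Mem and 16.4 ± 7.36 in Mem+Sol. The sum was not tested, and of its 3 tested genes 1 (Gsta4) was lower in each comparison. Gsta4 (chr9:78182774-78209349) was at 25.2, 32.9, 15.1, 35.1 and 30.9 CPM in WT libraries 1 to 5. It was at 5.70, 2.97, 5.63, 7.25 and 9.08 CPM in Mem, all below WT, and between 4.28 and 17.2 CPM, with a median of 9.52 CPM, in Mem+Sol. Of the Mem+Sol libraries, 2 (replicates 1 and 4) were above the lowest WT library. Gsta1 was at 3.09 CPM or less in every ileum library (log2 fold change -2.06 ± 0.71 in Mem, adjusted p 0.0833), and Gsta3 at 1.41 to 20.6 CPM overlapped in all groups.

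The Gstm genes, mu class enzymes, held calls in both directions in Mem+Sol, with Gstm4 and Gstm5 higher and Gstm3 lower. Gstm4 (chr3:108040408-108044894) was at 5.88, 4.15, 3.65, 6.83 and 6.53 CPM in WT libraries 1 to 5, at 10.9, 8.04, 7.68, 8.10 and 7.62 CPM in Mem, and between 8.80 and 19.5 CPM, with a median of 10.5 CPM, in Mem+Sol. Both transgenic groups lay above WT without overlap, although in Mem the test was not passed (0.66 ± 0.24, adjusted p 0.109). Gstm5 (chr3:107895821-107898686) was at 21.7, 16.3, 13.9, 14.9 and 13.4 CPM in WT, at 19.2, 21.9, 22.8, 20.2 and 18.2 CPM in Mem, and between 19.8 and 38.2 CPM, with a median of 25.7 CPM, in Mem+Sol, where only WT 1 overlapped. The antisense gene 4933431E20Rik overlaps the start of Gstm5, and without a stated strand setting their reads cannot be told apart.
Gstm3 was at 58.3 CPM in WT 2 and at 4.82 to 11 CPM in the other WT libraries, against 1.64 to 6.31 CPM in Mem+Sol. Its log2 fold change of -2.20 in Mem+Sol became -1.23 without WT 2. Gstm1, the most abundant Gstm gene, was at 58.3, 54.1, 22.4, 42.3 and 24.3 CPM in WT, at 42.0, 35.4, 30.9, 31.0 and 27.7 CPM in Mem and between 21.8 and 81.2 CPM, with a median of 40.4 CPM, in Mem+Sol, with overlap throughout. Gstm2, Gstm6 and Gstm7 did not pass either comparison.

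The Gstp, Gstt and Gsto genes gave 0 calls among 6 tested genes in the ileum. Gstp1, the pi class enzyme, was at 59.1, 101.3, 86.1, 96.5 and 134.1 CPM in WT, at 64.6, 75.1, 79.6, 91.2 and 82.2 CPM in Mem and between 73.9 and 138.6 CPM, with a median of 97.8 CPM, in Mem+Sol. Gstt3, of the theta class, was at 51.5, 71.2, 49.0, 55.8 and 57.7 CPM in WT, at 46.5, 57.3, 55.1, 51.0 and 48.5 CPM in Mem and between 45.6 and 71.9 CPM, with a median of 46.7 CPM, in Mem+Sol. Gsto1, an omega class enzyme that also reduces dehydroascorbate, was at 355.0, 520.9, 368, 424 and 355.3 CPM in WT, at 396.8, 588, 421, 443.4 and 443.5 CPM in Mem and between 294.7 and 749 CPM, with a median of 574 CPM, in Mem+Sol.
Each of these 3 genes overlapped between all groups. The log2 fold changes of Gstp1, Gstt3 and Gsto1 were -0.23 ± 0.22, -0.16 ± 0.15 and 0.16 ± 0.24 in Mem and 0.14 ± 0.21, -0.18 ± 0.15 and 0.40 ± 0.24 in Mem+Sol.

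The membrane-bound Mgst enzymes, which conjugate glutathione to lipophilic compounds and reduce lipid peroxides, were lower in 1 of 3 genes in each comparison, Mgst3 in Mem and Mgst1 in Mem+Sol. Mgst1 was at 209.5, 233, 186, 271.5 and 230.2 CPM in WT libraries 1 to 5, at 195, 82.0, 87.9, 80.7 and 94.7 CPM in Mem, and between 31.8 and 139.6 CPM, with a median of 62.2 CPM, in Mem+Sol. Mem+Sol lay below WT without overlap, while Mem 1 fell within the WT range and the other 4 Mem libraries did not (log2 fold change in Mem -1.06 ± 0.34, adjusted p 0.064). Mgst3 was at 286, 342, 220.1, 331 and 187.5 CPM in WT, at 211, 143, 107, 127 and 126 CPM in Mem, and between 110.1 and 277 CPM, with a median of 173.5 CPM, in Mem+Sol, where the test was not passed (-0.47 ± 0.23, adjusted p 0.129). Mgst2 was at 102 to 157 CPM in WT and at 72.5 to 80.9 CPM in Mem, without overlap and without passing the test (-0.69 ± 0.23, adjusted p 0.0816).

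The sulfotransferase Sult1d1 (chr5:87554645-87569027), which acts on catecholamines and other phenols, was at 106, 234, 166, 146 and 225 CPM in WT ileum libraries 1 to 5. It was at 109, 60.3, 82.8, 59.6 and 83.0 CPM in Mem, where only Mem 1 reached the WT range, and between 21.5 and 73.7 CPM, with a median of 35.6 CPM, in Mem+Sol, below all WT libraries. Sult1b1 was at 118, 176, 154, 145.5 and 215 CPM in WT, at 104.5, 56.0, 96.2, 97.2 and 108 CPM in Mem, and between 40.2 and 151 CPM, with a median of 85.4 CPM, in Mem+Sol. Mem was below WT without overlap but did not pass the test (-0.82 ± 0.30, adjusted p 0.105), while Mem+Sol overlapped WT in 2 libraries, replicates 4 and 5.
Sult2b1 was at 214, 269.9, 223, 227 and 176 CPM in WT, at 201.5, 128, 128, 111 and 150.4 CPM in Mem, and between 108 and 199 CPM, with a median of 136 CPM, in Mem+Sol. The groups overlapped in each comparison. Sult1c2 was at 2.89 to 8.12 CPM in WT and at 0.447 to 3.10 CPM in Mem+Sol.
Sult4a1, a sulfotransferase known from brain, was at 8.29, 3.63, 3.91, 7.90 and 6.30 CPM in WT, at 4.72, 8.37, 12.1, 10.2 and 9.57 CPM in Mem, and between 7.19 and 51.6 CPM, with a median of 14.3 CPM, in Mem+Sol. Its 2 highest values, 51.6 and 28.7 CPM, were in Mem+Sol 6 and 4, and its lowest Mem+Sol value lay within the WT range.

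**Figure D3:**
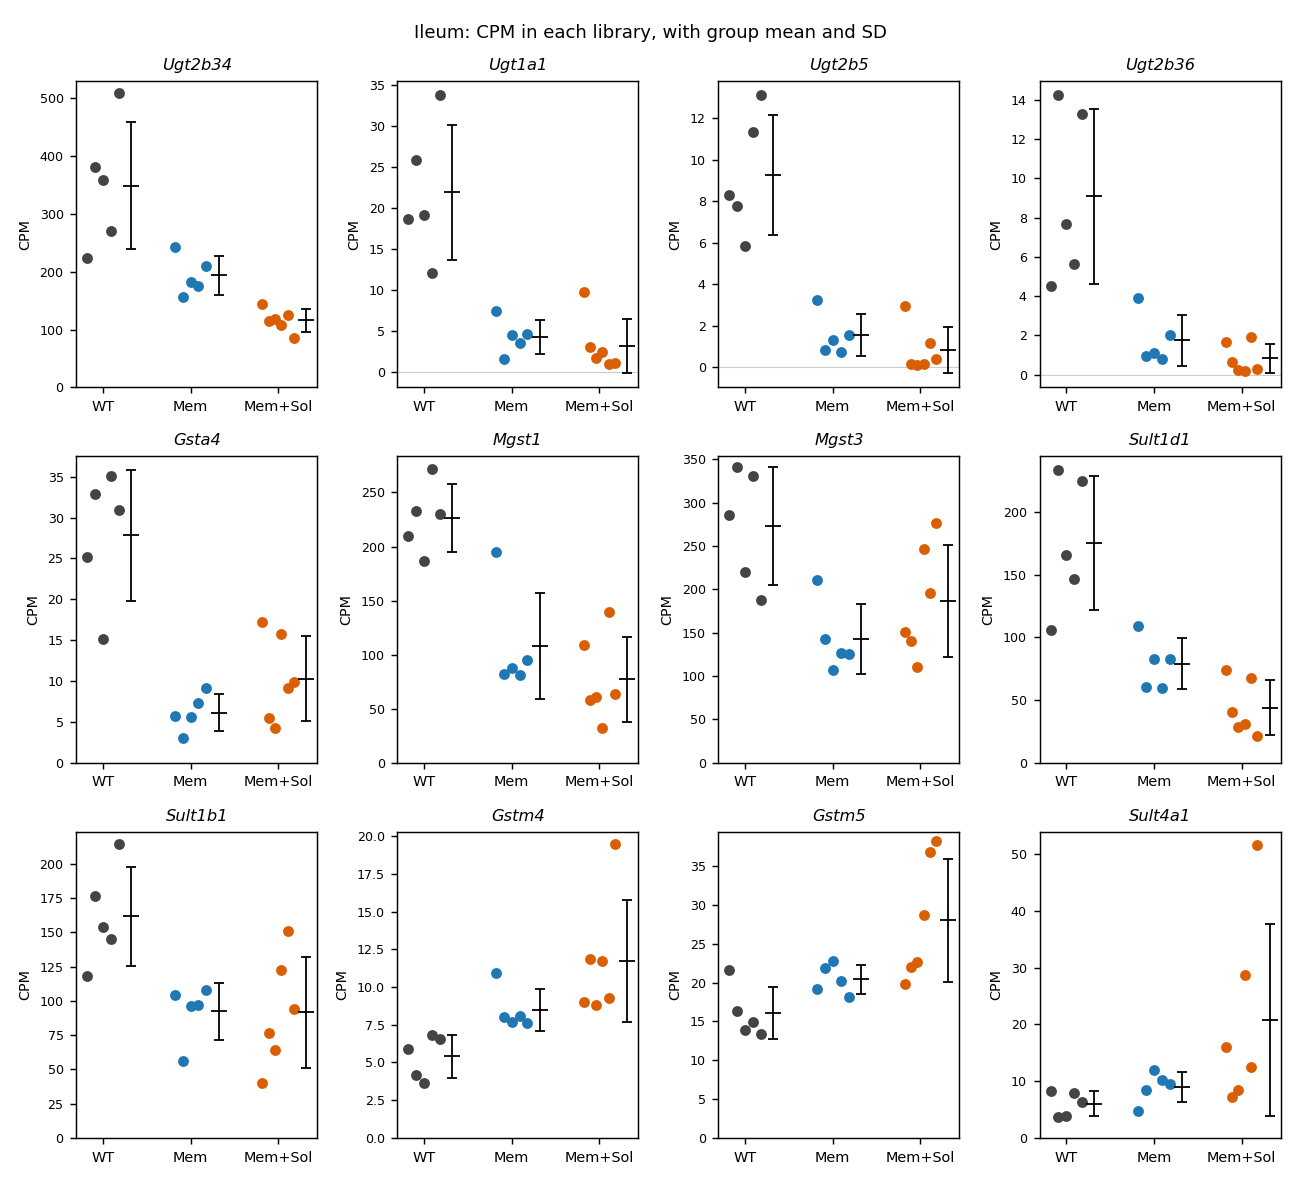
CPM of 12 genes in each ileum library (points, linear axes), with group mean and SD (black bars) for 5 WT, 5 Mem and 6 Mem+Sol libraries. Mem+Sol points of Ugt2b34, Mgst1 and Sult1d1 lie below all WT points, and those of Gstm4 above.

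The Mem calls in the ileum were sensitive to single libraries, and 16 refits that each left out 1 ileum library gave 1 to 11 called genes. Gsta4 kept its call in all 16. The count was 1 without Mem 2 or Mem 4, 2 without Mem 3 or WT 2, 3 without Mem 5 or WT 5, 4 without WT 1 or WT 4, and 11 without Mem 1. The refit without WT 1 left WT ileum libraries from males alone. Ugt1a1 lost its call without Mem 2, Mem 4 or WT 1 (adjusted p 0.055 to 0.0754). Ugt2b34 lost its call without Mem 2, Mem 3, Mem 4, WT 2, WT 3 or WT 5 (0.0536 to 0.109), and Ugt2b36 without Mem 2, Mem 3, Mem 4, Mem 5, WT 2 or WT 5 (0.0517 to 0.109). Mgst3 lost its call in 7 of the refits, Ugt2b5 in 8 and Sult1d1 in 10, with adjusted p up to 0.112, 0.121 and 0.151; leaving out Mem 2 or Mem 4 was among them for each, and Sult1d1 lost it also without Mem+Sol 2 or Mem+Sol 4. The log2 fold changes of these 7 genes stayed below 0 in every refit.
In Mem+Sol ileum the refits gave 12 to 16 called genes, and 12 of the 15 kept their call in all 16. Sult1b1 lost its call in 11 refits (adjusted p up to 0.0842), Sult2b1 in 3 (without Mem+Sol 1, WT 1 or WT 2, adjusted p 0.0564 to 0.0731) and Ugt2a3 in 1, given above.

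Marker genes of other cells moved with genotype in the ileum. Of 18 absorptive enterocyte markers, 2 were lower and 1 (Fabp1) was higher in Mem, with a median log2 fold change of -0.77, and 11 were lower and 1 was higher in Mem+Sol, with a median of -1.20. Their summed level ran from 18840 to 40630 CPM in WT, from 11260 to 19930 in Mem and from 8521 to 17300 in Mem+Sol, and none of the 18 was at 0 in any group. Of 10 general epithelial markers 2 were lower and 1 higher in each comparison, with medians of -0.18 and -0.33.
Of 12 tuft cell markers 11 were higher in Mem and 12 in Mem+Sol, of 10 smooth muscle markers 5 and 10 were higher, and all 8 fibroblast and matrix markers were higher in both. Smooth muscle markers summed to 2982 to 6757 CPM in WT, 9373 to 16120 in Mem and 12790 to 61530 in Mem+Sol. Mast cell markers were higher in 1 of 7 tested in Mem and in 5 of 7 in Mem+Sol, with a summed level of 54.7 to 105 CPM in WT, 92.9 to 231 in Mem and 152 to 581 in Mem+Sol. Of 10 goblet cell markers 4 were higher (Retnlb at 5.46) and 3 lower (Zg16 at -2.38) in Mem, and 3 were higher and 3 lower in Mem+Sol. Of 7 stem and crypt markers 0 passed in Mem, and 1 was higher and 2 lower in Mem+Sol. Leukocyte markers gave 0 calls among 7 in Mem, and 1 was lower and 0 higher in Mem+Sol. The part of these shifts in the values of the conjugating enzymes was not tested.

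The supply and disposal genes around these enzymes came from lists of known pathway members. For sulfation, 3 of 7 tested genes were lower and 0 higher in each transgenic ileum group (medians -0.389 and -0.66). They were Papss1 and Papss2, which make PAPS (log2 fold change -0.63 and -0.76 in Mem, -0.90 and -0.91 in Mem+Sol), and the sulfate transporter Slc26a2 (-1.05 and -1.33). For glucuronidation, 1 of 5 listed genes was lower in Mem, and 3 were lower and 2 higher in Mem+Sol (medians -0.658 and -0.755). Those with the smallest adjusted p in Mem+Sol were Gusb (0.737), Slc35d2 (-0.755) and Ugdh, which makes UDP-glucuronic acid (-0.78 ± 0.20). Gusb, which was among the higher genes, breaks glucuronides down and is not a supply gene. For glutathione, 1 of 10 genes was higher in Mem, and 2 were higher and 1 lower in Mem+Sol (medians 0.203 and 0.163). The Mem+Sol counts were near the shares of all tested genes. In Mem+Sol, Slc7a11, the cystine importer, was at 1.35, G6pdx at 1.06 and the glutathione hydrolase Ggt1 at -1.65.
Of 9 efflux transporters 2 were lower in Mem, and 4 were lower and 3 higher in Mem+Sol (medians -0.362 and -0.57). Those with the smallest adjusted p in Mem+Sol were Abcb1a (-2.32 in Mem and -3.17 in Mem+Sol), Abcg2 (-1.22 and -1.35) and Abcc6 (-1.61 in Mem+Sol). Of 14 nuclear receptor and aryl hydrocarbon receptor genes 4 were lower in Mem, and 7 were lower and 1 higher in Mem+Sol (medians -0.464 and -0.841). The lower genes included the xenobiotic receptor Nr1i2 (-0.68 and -1.03). Of 13 NRF2 genes 3 were higher and 1 lower in Mem, and 5 were higher and 4 lower in Mem+Sol (medians -0.033 and -0.05). Those with the smallest adjusted p in both were Me1 (3.61 and 3.94), Hmox1 (1.43 and 2.09) and Cbr3 (1.31 and 1.71).
Of 7 relatives outside the symbol rule 3 were higher in Mem and 4 in Mem+Sol, and 0 were lower (medians 0.81 and 1.07). Among them were the leukotriene and prostaglandin genes Alox5ap (2.48 and 3.22), Ltc4s (1.67 and 2.58) and Hpgds (1.68 and 1.5). Of 10 other conjugating enzymes, such as methyl and acetyl transferases, 2 were lower in Mem, and 3 were lower and 3 higher in Mem+Sol (medians -0.293 and -0.261). In Mem lung 4 of 13 NRF2 genes were higher and 0 lower, among them Me1 (0.498), Hmox1 (0.502) and Slc7a11 (1.28). Over all tested genes 6.41% were higher and 3.05% lower there. The other pathway lists held at most 2 calls each in Mem lung, and none held a call in Mem+Sol lung against WT. Between Mem+Sol and Mem lung only Papss2 (0.403) was called.

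**Figure D4:**
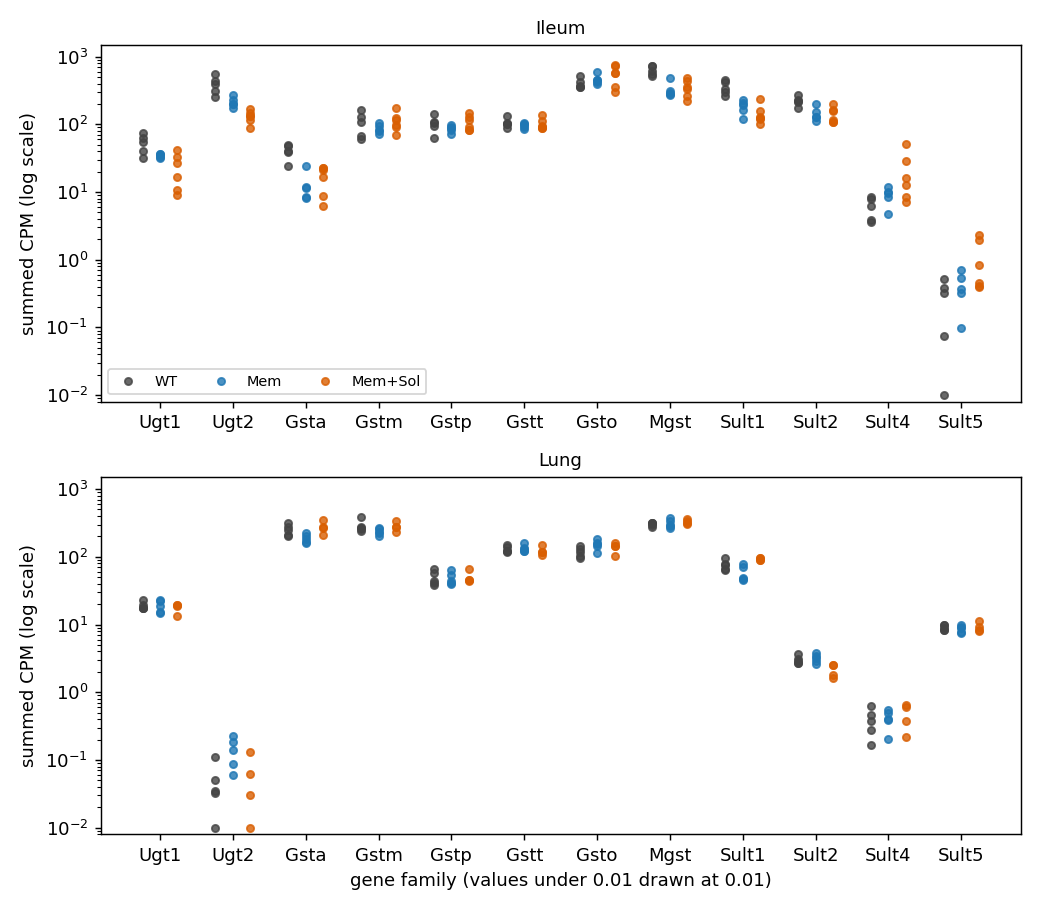
Summed CPM of each family (x axis) in every ileum library (upper panel) and lung library (lower panel), on a log scale with values under 0.01 drawn at 0.01; colours mark genotype. In the ileum the Ugt2 sums fall between 252 and 559 CPM in WT and between 89.6 and 169 CPM in Mem+Sol, and in the lung they are at 0.222 CPM or less.

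In the lung few conjugating enzymes passed the test. The Mgst sum was 305.5 ± 17.0 CPM in WT, 309.6 ± 44.2 in Mem and 328 ± 28.0 in Mem+Sol, and the Gstt sum 129.6 ± 14.4, 134 ± 15.7 and 123 ± 17.8 CPM (n = 5, 5 and 4). Against WT, 2 of 28 tested genes were lower and 0 higher in Mem lung, where 9.46% of all 15885 tested genes were called, 3.05% lower and 6.41% higher. In Mem+Sol lung 0 of 28 genes passed against WT, where 0.844% of all genes did, 0.523% higher and 0.321% lower; 4 of the 28 had an unadjusted p under 0.05, as did 16.5% of all tested genes, and DESeq2 called 0. Between Mem+Sol and Mem lung 2 of 28 genes were higher in Mem+Sol and 0 lower, where 2.23% of all genes were called, 0.862% higher and 1.37% lower. The 2 lung comparisons of Mem share the Mem libraries.

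Sult1d1 was lower in Mem lung (log2 fold change -1.40 ± 0.23, adjusted p 0.00234). It was at 27.4, 19.7, 35.8, 20.6 and 26.4 CPM in WT lung libraries 1 to 5, at 8.65, 11.2, 10.6, 5.61 and 11.6 CPM in Mem libraries 1 to 5, and at 22.2, 10.99, 19.0 and 19.2 CPM in Mem+Sol libraries 1 to 4. Every Mem library was below every WT library, while Mem+Sol overlapped both (0.92 ± 0.24 against Mem, adjusted p 0.0621). Within sequencing batch 1 the Mem log2 fold change was -1.48 and within batch 2 it was -1.25 (adjusted p 0.12 in batch 2), and the call stayed in all 14 refits that left out 1 library.
Gsta3, an alpha class enzyme (chr1:21240589-21265661), was at 177, 131, 200.3, 226 and 147.5 CPM in WT lung, at 122, 98.7, 153, 106 and 133 CPM in Mem, and at 179, 140.7, 207 and 271 CPM in Mem+Sol. Mem was at -0.41 ± 0.12 against WT (adjusted p 0.0458) and Mem+Sol at 0.77 ± 0.13 against Mem (adjusted p 0.0151), and the groups overlapped in both comparisons. Batches 1 and 2 alone gave -0.37 and -0.47 for Mem against WT, with neither past the test (adjusted p 0.164 and 0.0962), and 0.43 and 1.11 for Mem+Sol against Mem. The Mem call was lost in 10 of 14 refits that left out 1 library, with values from -0.49 to -0.34 and adjusted p up to 0.132, among them those without Mem 1, 2, 3 or 4, without Mem+Sol 1 and without any of the 5 WT libraries. The Mem+Sol against Mem call was lost without Mem 2 (adjusted p 0.0668).

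Sult1a1, the main phenol sulfotransferase, was higher in Mem+Sol than in Mem lung (0.66 ± 0.15, adjusted p 0.0375). It was at 49.1, 44.1, 42.0, 45.9 and 71.0 CPM in WT, at 37.0, 37.6, 37.0, 63.8 and 66.2 CPM in Mem, and at 74.6, 79.8, 78.0 and 69.3 CPM in Mem+Sol libraries 1 to 4, above every Mem library. The sexes were not balanced, with 3 of 4 Mem+Sol, 3 of 5 Mem and 2 of 5 WT libraries from females. In batch 1 the 5 female libraries of all genotypes were at 63.8 to 79.8 CPM and the 3 male libraries at 37.0 to 45.9 CPM, and in batch 2 the Mem+Sol female and male were at 78.0 and 69.3 CPM and the WT and Mem libraries of both sexes at 37.0 to 49.1 CPM. Batch 1 alone gave 0.25 and batch 2 alone 0.98 for the log2 fold change. Without the sex term the adjusted p was 0.0768, and 8 of the 14 refits lost the call (without Mem 1, 2, 3 or 4, Mem+Sol 3 or 4, or WT 2 or 4), with values down to 0.54 and adjusted p up to 0.143. The part of sex in this difference was not tested beyond the term in the model.

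**Figure D5:**
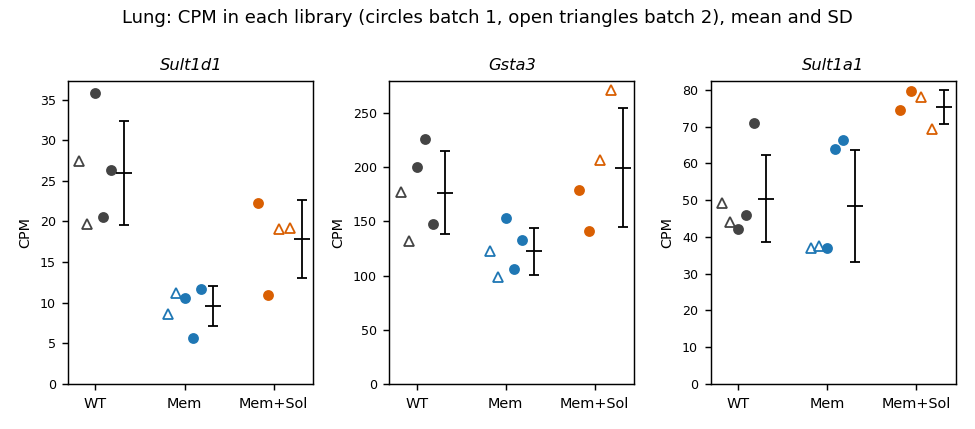
CPM of Sult1d1, Gsta3 and Sult1a1 in each lung library (linear axes; filled circles batch 1, open triangles batch 2), with group mean and SD for 5 WT, 5 Mem and 4 Mem+Sol libraries. Mem points of Sult1d1 lie below all WT points, and Mem+Sol points of Sult1a1 above all Mem points.

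Over all tested genes 6.41% were higher and 3.05% lower in Mem lung, and 0.862% were higher and 1.37% lower in Mem+Sol than in Mem lung. Of 6 club cell markers 3 were lower in Mem lung, with a median log2 fold change of -0.28, and 1 was higher in Mem+Sol than in Mem, with a median of 0.34. They summed to 25770 to 32590 CPM in WT, 19070 to 28900 in Mem and 26950 to 34410 in Mem+Sol, and none was at 0. Goblet cell markers moved further, with 4 of 7 tested higher in Mem (Clca3 at 8.14, Fcgbp at 3.32 and Agr2 at 2.29) and 1 higher in Mem+Sol, and Fcgbp lower in Mem+Sol than in Mem (-1.75). They summed to 13.6 to 24.1 CPM in WT, 289 to 1456 in Mem and 90.3 to 254 in Mem+Sol. Of 7 stem and crypt markers the proliferation genes Top2a (1.19) and Mki67 (1.00) were higher in Mem, and between Mem+Sol and Mem Top2a was the lower in Mem+Sol (-1.07). The part of these shifts in the values of Sult1d1, Gsta3 and Sult1a1 was not tested.

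The most abundant genes of the remaining families that were tested in the lung had no call there. Mgst1 was at 281, 252, 295, 286 and 269.8 CPM in WT, at 249.9, 233, 331.5, 266 and 308 CPM in Mem and at 328, 289, 268 and 299 CPM in Mem+Sol. Gstm1 was at 203, 176, 189, 276 and 179 CPM in WT, at 182, 162, 184, 129.5 and 151 CPM in Mem and at 239, 162.5, 213 and 209.5 CPM in Mem+Sol (log2 fold change in Mem -0.29 ± 0.12, adjusted p 0.154). Gsto1 was at 118, 96.2, 130.3, 142 and 103 CPM in WT, at 112, 145, 155, 157.5 and 184 CPM in Mem and at 141.5, 102, 142 and 160.4 CPM in Mem+Sol (0.39 ± 0.14 in Mem, adjusted p 0.101). These 3 genes overlapped between all genotypes.
Gstt1 was at 65.5, 70.3, 70.6, 78.0 and 63.9 CPM in WT, at 67.2, 69.9, 80.6, 77.2 and 68.4 CPM in Mem and at 78.6, 60.5, 55.6 and 68.1 CPM in Mem+Sol. Gstp1 was at 40.3, 37.5, 56.4, 65.8 and 43.7 CPM in WT, at 40.5, 38.9, 63.8, 43.2 and 53.3 CPM in Mem and at 66.1, 44.0, 42.3 and 44.5 CPM in Mem+Sol. Both overlapped between genotypes.
Ugt1a6a was at 14.2, 10.9, 11.6, 10.8 and 9.27 CPM in WT, at 13.6, 12.1, 9.14, 8.41 and 8.26 CPM in Mem and at 8.31, 9.51, 10.3 and 11.8 CPM in Mem+Sol. Sult5a1 was at 9.71, 8.31, 8.35, 8.84 and 9.96 CPM in WT, at 7.58, 7.73, 9.89, 9.30 and 8.84 CPM in Mem and at 11.4, 8.12, 9.06 and 8.38 CPM in Mem+Sol. Both overlapped as well. Sult2b1 was at 2.60 to 3.35, 2.39 to 3.71 and 1.62 to 2.41 CPM, with Mem+Sol below every WT library without passing the test (-0.44 ± 0.17, adjusted p 0.225). Sult4a1 stayed at 0.165 to 0.648 CPM over all lung libraries. Ugt2b34, the Ugt2 gene with the most lung counts, was too low to be tested there and had 5, 15 and 3 counts in all in WT, Mem and Mem+Sol.

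Whether the genotype effect differed between tissues was tested as an interaction in a joint model, with positive values where the lung fold change was the higher one. For Mem, 3 of 37 genes passed, all positive, while 8.23% of all 16867 genes did, 3.56% higher and 4.67% lower. They were Gsta4 (1.97 ± 0.41, adjusted p 0.00416), Mgst2 (1.05 ± 0.30) and Mgst3 (1.00 ± 0.30). For Mem+Sol, 7 of 37 passed, 5 positive and 2 negative, while 18.1% of all genes did, 6.55% higher and 11.6% lower. The positive ones were Mgst1 (1.73 ± 0.40, adjusted p 0.00437), Gsta4 (1.58 ± 0.40), Sult1d1 (1.5 ± 0.46), Mgst2 (0.92 ± 0.32) and Ugt1a1 (2.5 ± 0.89, adjusted p 0.05 after rounding, a single row whose summed locus was not tested here), and the negative ones Gstm4 (-1.06 ± 0.29) and Gstm5 (-0.83 ± 0.26).
Gsta4, the gene called for both genotypes here, was at 70.3, 67.2, 72.3, 86.7 and 62.7 CPM in WT lung, at 58.9, 61.5, 74.3, 61.5 and 71.0 CPM in Mem lung and at 87.5, 68.7, 70.5 and 81.5 CPM in Mem+Sol lung, with overlap, while its ileum values are given above. Mgst2 was at 5.93, 4.72, 4.87, 7.07 and 7.35 CPM in WT lung, at 6.65, 6.48, 10.3, 6.76 and 8.01 CPM in Mem lung and at 8.78, 5.96, 7.62 and 7.62 CPM in Mem+Sol lung. Mgst3 was at 19.3 to 26.2, 18.4 to 27.5 and 17.2 to 28.9 CPM in the lung groups, also with overlap. Sult1d1 was not called for Mem (-0.28 ± 0.44, adjusted p 0.739), where it was lower than in WT in both tissues.
Single libraries mattered here too. Over 30 refits that each left out 1 library the Mem count ran from 1 to 5, with 1 without Mem 4, Mem 5 or WT 2 of the ileum or Mem 5, WT 2 or WT 3 of the lung, and 5 without Mem 1 of the ileum. The Mem+Sol count ran from 3 to 10, with 3 without Mem+Sol 4 of the lung and 4 without Mem+Sol 1, Mem+Sol 3, WT 1 or WT 2 of the lung. Gsta4 kept both calls in all 30 and Mgst1 and Gstm4 kept theirs. The Ugt1a1 call was lost in 25 of 30 (adjusted p up to 0.125) and was at 3.33 without Mem+Sol 1 of the ileum, and Mgst2 lost its calls in 7 and 13, Mgst3 in 14, Gstm5 in 6 and Sult1d1 in 3.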

How the data were processed

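RNA from 16 ileum and 14 lung libraries was sequenced, per the labels' protocols from poly(A)-selected RNA in 3 batches. The authors deposited a table of raw read counts per gene symbol for each tissue; the submitters' processing notes name CASAVA, TopHat2 and the mm10 build, and for the counting tool, annotation and strand setting nothing is stated in the labels or headers. The groups come from the sample titles and labels. Of the ileum rows, 27 carry a date in place of a symbol, none in a family described here.

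The counts were tested with edgeR 4.0.16 (limma 3.58.1, R 4.3.3): filterByExpr, TMM scaling, a robust quasi-likelihood fit with genotype and sex (ileum), also batch (lung), or tissue-genotype groups with sex within tissue and lung batch (joint, 24035 shared symbols). Residual degrees of freedom were 12, 9 and 21. P-values were adjusted over all tested genes by Benjamini-Hochberg, with a threshold of 0.05. Errors of fold changes are standard errors taken from the F statistic. CPM are counts-per-million of the TMM-scaled total, scaled separately in each tissue, and jointly for the WT tissue comparison. Per-kilobase levels use GENCODE M21 exon lengths. The scripts were tested on simulated data. DESeq2 1.42.0 and the other alternatives are in the closing section.

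The genes, the pathway and marker lists and the tests were chosen with earlier results of these data known. Every called gene is named, up to 12 per direction and comparison, with values per library, or ranges, for the 4 with the smallest adjusted p and for the most abundant gene of each family in each tissue, and up to 3 called genes per other list. A further promoter motif that was searched is not reported here. Depth and precision differ by tissue, and with 4 to 6 libraries per group the number of libraries limits the precision too.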

Additional observations from a re-analysis of the deposited data

Results flagged for a closer look

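A single library stood apart from the others of its group in 12 of 93 gene and group combinations checked over 19 genes, by Dixon's criterion. It flags about 1 in 20 by chance where values are normally distributed. Here it was applied to untransformed CPM of genes chosen by their calls, so that rate may not hold and an excess was not tested. In the ileum, Mem 1 was high for Gsta3 (17.1 CPM against 2.362 to 4.274 in the other 4), Gstm4 (10.91 against 7.615 to 8.103) and Mgst1 (195.1 against 80.74 to 94.72). WT 1, the only WT ileum library from a female, was high for Gsta3 (20.55 CPM against 5.181 to 9.395) and Sult1a1 (31.16 against 3.128 to 6.476). WT 2 was high for Gstm3 (58.29 CPM against 4.822 to 11) and Ugt2a3 (16.32 against 0.6406 to 2.125). Mem+Sol 1 was high for Ugt1a1 (9.768 CPM against 0.9968 to 2.979) and Ugt2b5 (2.97 against 0.1064 to 1.163), and Mem+Sol 6 for Gstm4 (19.52 against 8.801 to 11.88). Mem 2 was low for Sult1b1 (56.03 CPM against 96.22 to 108.3). In the lung, WT 5, the only batch 1 WT library from a female, was high for Sult1a1 (71.0 CPM against 42.04 to 49.13). The part of sex in these flags was not tested.

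The genotype effect differed between lung and ileum by the interaction test for 3 genes in Mem: Gsta4 (1.967 on the log2 scale, lung minus ileum), Mgst2 (1.051) and Mgst3 (1.005). In Mem+Sol it differed for Gsta4 (1.578), Mgst1 (1.725), Mgst2 (0.923), Sult1d1 (1.504), Ugt1a1 (2.5), Gstm4 (-1.057) and Gstm5 (-0.828). These were 8.11% and 18.9% of the 37 conjugating enzyme genes tested, near the 8.23% and 18.1% of all tested genes that passed. A shift in level common to all libraries of a batch cancels in these differences. A genotype effect that depends on batch cannot be told apart from one that depends on tissue.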

How the results depend on the processing

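Named genes kept the direction of their log2 fold change under the alternatives, each in the comparison where it was called. The 72 family levels stayed within 1 SD under another scaling. Genes without a call could change direction, as Mgst1 did in Mem lung against WT (0.023, and -0.139 in batch 2 alone). The 7 calls in Mem ileum against WT became 12 with DESeq2 and 11 with only the genotypes compared in the fit, and 1 to 11 when libraries were left out singly; without the filter Ugt2b5 (adjusted p 0.0524 by edgeR) and Sult1d1 (0.0538) lost their calls. The 15 calls in Mem+Sol ileum ran from 12 to 16, and with only the genotypes compared Sult1b1 (adjusted p 0.0967 by edgeR) and Sult2b1 (0.0538) lost theirs. Between transgenic ileum groups DESeq2 called 1 in place of 0. The 2 calls in Mem lung against WT became 1 with no batch term, 1 with no filter, 1 with no sex term, 1 in batch 1 alone and 0 in batch 2 alone, and 1 to 3 with a library left out. For Mem+Sol against WT lung, batch 2 alone gave 2 in place of 0, and leaving out a library gave 0 to 1, the 1 without Mem+Sol 2. For Mem+Sol against Mem lung the 2 calls became 4 with DESeq2, 1 with no batch term, 0 with no sex term, 0 with only the genotypes compared, 0 in batch 1 alone and 6 in batch 2 alone, and 0 to 4 with a library left out (0 without Mem 2, 4 without Mem+Sol 2). The interaction calls became 5 with DESeq2 for Mem, and with a library left out ran from 1 to 5 for Mem and from 3 to 10 for Mem+Sol. Each batch alone holds fewer samples; otherwise the cause was not tested.

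With a replicate block the ileum counts were 8 and 14, where Gstm5 (0.578, adjusted p 0.0652 by edgeR), Ugt2a3 (-2.822, 0.0548) and Sult2b1 (-0.642, 0.0759) were no longer called in Mem+Sol. Same-numbered libraries correlated over 0.1 in 8 of 15 ileum pairs (r from -0.35 to 0.552) and 5 of 13 lung pairs (-0.317 to 0.354). Of the libraries, 8 of 16 and 4 of 14 correlated best with their own number, and no chance level was computed for these counts. The main fit did not take the numbers as pairs, and whether they mark pairs was not tested. Summing close copies by coding identity of at least 95% was chosen after seeing the data, in place of a planned version by protein identity that was not run. Levels per kilobase moved beyond 1 SD for 35 values and stayed within it for 73 under other gene lengths. Ileum WT libraries were the shallowest, and thinning all ileum libraries to the smallest total gave 7 and 14 calls.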
